A study of Mus musculus with 9 samples.

Results

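Cholesterol synthesis and handling was examined through 30 named mouse genes: 17 enzymes that build cholesterol from acetyl-CoA, 4 sterol-sensing regulators, 3 genes of lipoprotein receptors and their turnover, 3 intracellular transport genes and 3 esterification enzymes. Members were chosen by symbol and matched to gene identifiers through GENCODE M1. A total of 29 of the 30 matched, and all 29 are listed in both deposited tables, among 13259 genes that the tables share. *Hmgcs1*, which encodes the cytosolic HMG-CoA synthase, had no match by symbol and has no value here.

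The study sequenced RNA of 9 libraries of AML12, an established line of mouse hepatocytes. Of these, 3 came from control cells and 3 from each of 2 hairpins against *Srrm2*, which encodes a scaffold protein of nuclear speckles. The hairpin cells had been infected with lentivirus for 5 days, and all cells were grown with fetal bovine serum, an insulin-containing supplement and dexamethasone. The labels do not say whether libraries of a group came from separate cultures.

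The value used is the authors' mean normalized count of each gene, which pools the control libraries with those of shRNA 1 in one table and with those of shRNA 2 in the other. It has no value per library, no replicate error and no separate control value. The authors' own comparison of each hairpin with the control, deposited beside it, was not used, so neither hairpin is set against the control here and no test is given. For *Srrm2* itself the authors' means were 3428 with shRNA 1 and 3759 with shRNA 2, which do not check the knockdown because each includes control cells. The means summed to 6144608 over the 13424 genes of the shRNA 1 table and to 6393456 over the 13478 genes of the shRNA 2 table. The lowest means listed were 1.56 and 1.92. All 10 hepatocyte markers examined were listed, and each was above the median protein-coding gene per kb of transcript. They included *Alb* (albumin) with means of 2151 and 1814 and *Hnf4a*, a hepatocyte transcription factor, with 1498 and 1624. None of 5 endothelial markers was listed, and the 3 leukocyte and 2 mesenchymal markers that were listed summed to 56.6 and 11.9 in the shRNA 1 table and 62.6 and 9.66 in the shRNA 2 table.

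Cholesterol is made in a series of reactions. Acetyl-CoA is built into mevalonate and then isoprenoid units, these are joined into squalene, squalene is closed into lanosterol, and lanosterol is trimmed to cholesterol. The transcription factor SREBP2 drives most of these enzymes. When sterol is plentiful, Insig proteins hold SREBP2 and its escort Scap in the endoplasmic reticulum. When sterol is scarce, SREBP2 moves to the Golgi, is cut, and enters the nucleus. Hepatocytes both make cholesterol and clear it from plasma lipoproteins, and they store the excess as esters.

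To place the genes on a common scale, the average of the authors' means in the 2 tables was divided by the length of the longest coding transcript. On this scale the members had a median level of 89.3 normalized counts per kb, against 62.7 for the 12505 protein-coding genes in both tables. A total of 20 of the 29 were above that median gene. The lowest and the highest member were *Mylip* at 3.88 and *Ebp* at 735 counts per kb. Without replicate values, the order of members with similar levels cannot be told from chance variation. Division by all annotated exon sequence of a gene in place of its longest transcript lowered the levels of *Mvk*, *Sqle*, *Lss*, *Tm7sf2*, *Sc4mol*, *Scarb1* and *Npc1* by over 1.5 times. Together the 29 genes held 0.176% of the summed means in the shRNA 1 table and 0.175% in the shRNA 2 table.

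**Figure D1:**
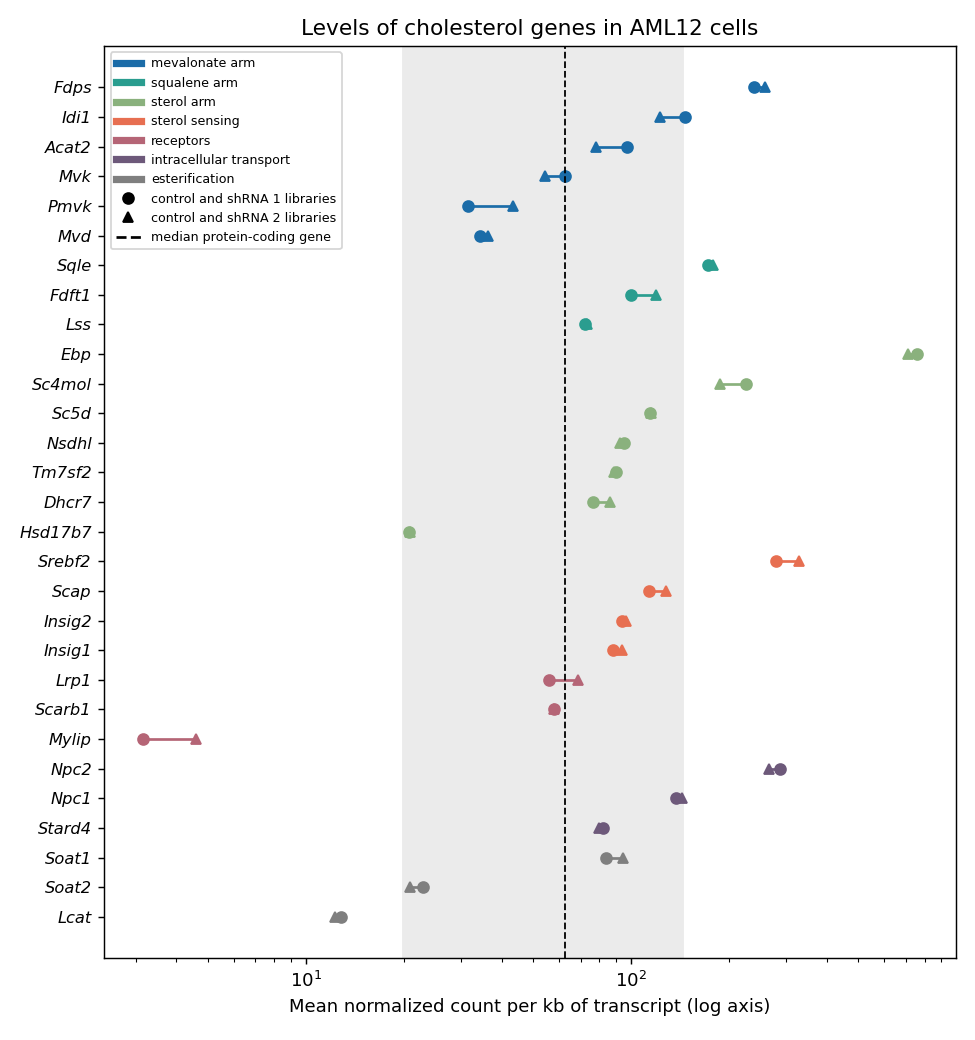
Mean normalized count per kb of transcript (log axis) of the 29 listed members, coloured by role. Circles are the pooled control and shRNA 1 libraries and triangles the pooled control and shRNA 2 libraries, without scaling; the dashed line marks the median protein-coding gene (62.7) and the grey band its quartiles. *Ebp* lies far above the other enzymes, and *Mylip* is the lowest member.

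Among the 6 listed enzymes of the mevalonate arm, levels ran from 35.4 to 248 counts per kb. *Fdps*, which makes farnesyl diphosphate, was the highest, with authors' means of 294 and 318 in the tables of shRNA 1 and shRNA 2. *Idi1*, the isomerase that balances the isoprenoid building blocks, had means of 420 and 351. It followed at 135 counts per kb. *Acat2*, the cytosolic thiolase at the head of the pathway, had means of 219 and 176, or 87.9 counts per kb. The 3 kinase and decarboxylase steps in between were the lowest of the arm. *Mvk*, which phosphorylates mevalonate, had means of 106 and 91.5 and a level of 58.5 counts per kb. *Pmvk*, which adds the next phosphate, had means of 37.7 and 52.0 and a level of 37.5 counts per kb. *Mvd*, the decarboxylase, had means of 60.5 and 64.2 and a level of 35.4 counts per kb. Along this arm the later enzymes *Idi1* and *Fdps* therefore had higher levels than the enzymes that act on mevalonate itself.

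All 3 enzymes from farnesyl diphosphate to lanosterol were above the median gene. *Sqle*, the squalene epoxidase and a rate-limiting step, had means of 475 and 495 and a level of 176 counts per kb. *Fdft1*, the squalene synthase, had means of 287 and 342 and a level of 110 counts per kb. Its exons overlap those of *Ctsb* on the opposite strand over 769 bases, 26.9% of its exon sequence. *Ctsb* had means of 4121 and 4497, so reads of the pair could be mixed if strand was not used in counting. *Lss*, the lanosterol synthase, had means of 337 and 342 and a level of 72.8 counts per kb.

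The 7 members that act between lanosterol and cholesterol spanned a wide range, from 20.8 to 735 counts per kb, and 6 of them were above the median gene. *Ebp*, the sterol isomerase, had means of 1319 and 1243 and stood at the 96.9th percentile of protein-coding genes. It was the highest of all members, with *Srebf2* next at 303 counts per kb. *Sc4mol*, the sterol methyl oxidase now named *Msmo1*, had means of 462 and 385 and a level of 207 counts per kb. *Sc5d* (means 257 and 260), *Nsdhl* (207 and 200), *Tm7sf2* (134 and 133) and *Dhcr7* (215 and 243) lay together between 81.4 and 115 counts per kb. They catalyse the desaturation, demethylation and reduction steps. *Tm7sf2* shares 532 exon bases with *1110014N23Rik* on the same strand. *Hsd17b7*, the keto-reductase that works with *Nsdhl*, was the lowest of the 16 listed synthesis enzymes at 20.8 counts per kb, with means of 95.7 and 96.5.

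All 4 sterol-sensing genes were above the median gene. *Srebf2*, which encodes SREBP2, had means of 1389 and 1639. *Scap* had means of 479 and 543 and a level of 121 counts per kb. The retention proteins were close to each other, with *Insig1* at means of 233 and 249 (91.0 counts per kb) and *Insig2* at 254 and 261 (95.5 counts per kb). In liver *Insig1* is itself a target of SREBP.

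The genes of lipoprotein uptake were lower. *Lrp1*, a large endocytic receptor for lipoprotein remnants, had means of 835 and 1021, which over its transcript of 14888 bases came to 62.3 counts per kb. *Scarb1*, the receptor for HDL, had means of 146 and 147 and a level of 58.1 counts per kb. *Mylip*, the ubiquitin ligase that sends lipoprotein receptors for degradation, had means of only 9.69 and 14.1. None of these 3 genes was above the median gene.

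For transport inside the cell, *Npc2*, the soluble lysosomal cholesterol carrier, had means of 936 and 870 and a level of 277 counts per kb, the third highest of the members. Its membrane partner *Npc1* had means of 719 and 747 and a level of 140 counts per kb. *Stard4*, a cytosolic sterol carrier, had means of 417 and 406 and a level of 80.7 counts per kb. Of the esterifying enzymes, *Soat1* had means of 400 and 451 and a level of 89.0 counts per kb. *Soat2*, the form typical of liver and intestine, had means of 50.6 and 46.2 and a level of 21.9 counts per kb, so the more widely expressed *Soat1* was 4.07-fold higher per kb in these cells. *Lcat*, a secreted liver enzyme that esterifies cholesterol on HDL, had means of 17.3 and 16.5 and a level of 12.6 counts per kb.

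To see where the 2 hairpins parted, the mean of each gene in the shRNA 2 table was divided by that in the shRNA 1 table. The ratio was scaled so that its median was 1 over the 7757 genes whose means reached 100 in both, which removed a factor of 1.05. Both means include control libraries. If the same 3 control libraries entered both, the ratio is drawn closer to 1 than that between the hairpins. The difference of the hairpins' mean counts is then estimated as 2 times the difference of the scaled means. Both are estimates without replicate error, so the ratio is not a strict lower bound on the fold between the hairpins. The GEO descriptions of 2 control libraries point to tables of other hairpins, and whether the controls were shared was not tested here. A gene was called higher or lower when the scaled ratio passed 1.1-fold (0.14 on the log2 scale) and both means reached 10.

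By this rule 11 of the 28 members that reached the minimum mean were called, 4 of them higher and 7 lower in the shRNA 2 table, and 17 were not. These are 14.3% and 25% of the members, against 18.4% and 17.5% of all 11451 genes tested. The combined share was 39.3% for the members and 35.8% for all genes, so at this minimum mean the members were called about as often as any gene. The raw direction of the split rests on the scaling, since without it 7 members were higher and 4 lower. The shares of all genes then moved as well, to 32.5% higher and 10.2% lower. Where both means reached 100, 13.8% of genes were higher and 14.8% lower, and of the 22 such members 3 were higher and 5 lower. The combined share there was 36.4% for the members and 28.6% for all genes, and this gap was not tested. The median log2 ratio of the 28 members was -0.05, and that of all genes was 0.0043. Counted by sign alone, 10 members lay above 0 and 18 below, and this count rests on the scaling. Without scaling, *Sqle*, *Lss*, *Hsd17b7*, *Sc5d*, *Insig2*, *Scarb1* and *Npc1* were above 0, and the median log2 ratio of the members was 0.02. The same shift applies to all genes, which were not counted by sign.

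**Figure D2:**
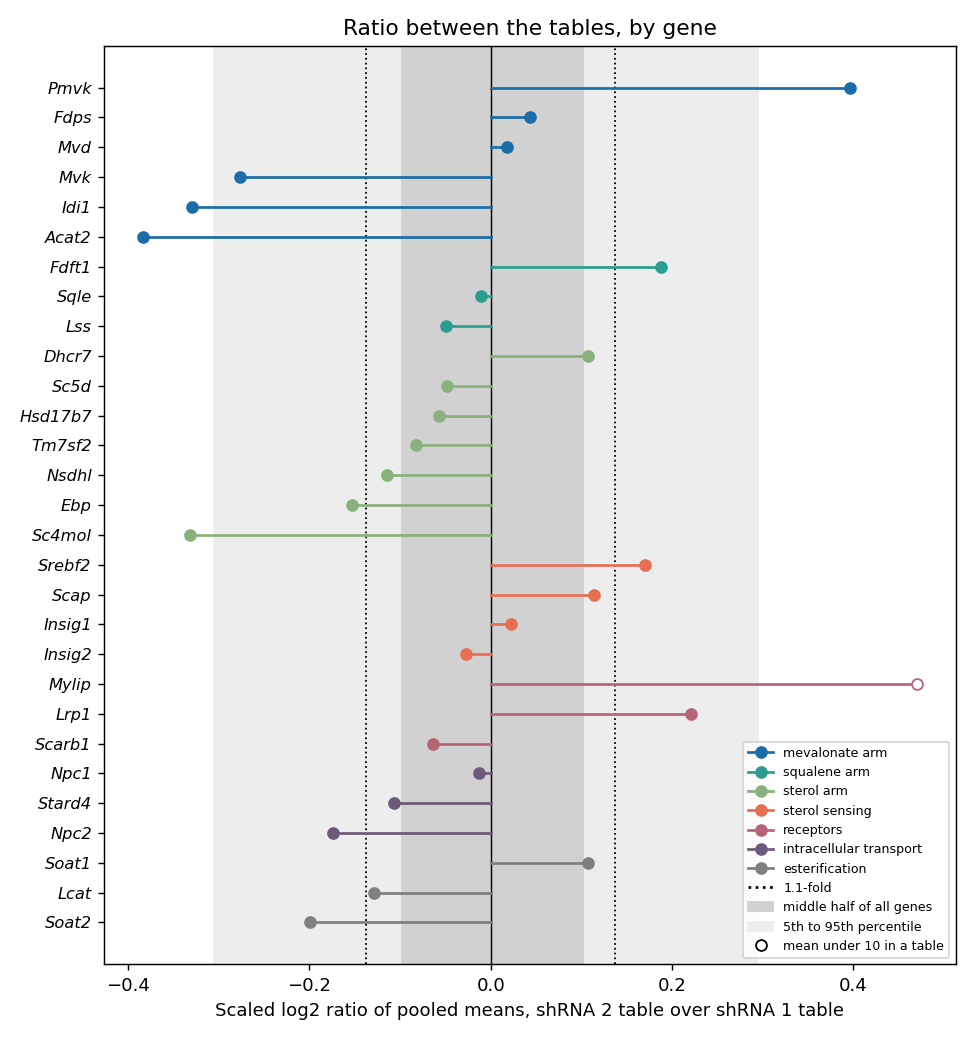
Scaled log2 ratio of the pooled means, shRNA 2 table over shRNA 1 table, for each listed member, grouped and coloured by role. Dotted lines mark 1.1-fold, the dark and light grey bands the quartiles and the 5th to 95th percentiles of all 11451 genes, and the open circle a gene under the minimum mean. *Acat2*, *Sc4mol* and *Idi1* lie below the light band and *Pmvk* and *Mylip* above it.

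Of the 16 listed synthesis enzymes, 5 were lower (31.2%), 2 were higher (12.5%) and 9 were not called, against 17.5% and 18.4% of all genes tested. No test of this difference is given. The largest difference downward was that of *Acat2* (ENSMUSG00000023832.7, chromosome 17 of mm9, 13135756 to 13153613), with a log2 ratio of -0.38. Its authors' mean of 219 in the shRNA 1 table compares with 168 in the shRNA 2 table after scaling. This is a ratio of 1.3-fold between the pooled means. With shared controls the shRNA 2 libraries would be lower by an estimated mean of 102 normalized counts. Without scaling the log2 ratio was -0.32, and no error can be given for these estimates. Its close copy *Acat3* lies beside it, at 13116699 to 13133268, with means of 64.6 and 51.4 and a log2 ratio of -0.40, and reads that match both genes would have been dropped as not unique. *Sc4mol* (ENSMUSG00000031604.4, chromosome 8, 67196936 to 67212589) had a log2 ratio of -0.33, from 462 to 367 after scaling, which is 1.26-fold. *Idi1* (ENSMUSG00000058258.6, chromosome 13, 8884852 to 8891641) also had -0.33, from 420 to 335, likewise 1.26-fold. These 3 genes lay below the 5th percentile of all genes (-0.30). *Mvk* (chromosome 5, 114894278 to 114910600) had a log2 ratio of -0.28, from 106 to 87.3. *Ebp* (chromosome X, 7762455 to 7770638) had -0.15, from 1319 to 1186, just past the threshold.

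Called in the other direction were 1 enzyme of the mevalonate arm and 1 of the squalene arm, in which none was lower. *Pmvk* (ENSMUSG00000027952.8, chromosome 3, 89263040 to 89272935), the enzyme directly after *Mvk*, had a log2 ratio of 0.40, from 37.7 in the shRNA 1 table to 49.6 in the scaled shRNA 2 table. This was the largest ratio upward among the tested members, above the 95th percentile of all genes (0.29), at a low mean. *Fdft1* (chromosome 14, 63763990 to 63796630) had 0.19, from 287 to 327, while its overlapping neighbour *Ctsb* had 0.06. The other enzymes of the squalene arm differed little, *Sqle* by -0.01 and *Lss* by -0.05 on the log2 scale. *Fdps* (0.04) and *Mvd* (0.02) also lay close to 0. In the sterol arm 6 of 7 scaled ratios were below 0, though those of *Hsd17b7* and *Sc5d* were above 0 without scaling. Only *Sc4mol* and *Ebp* were called. *Nsdhl* (-0.11), *Tm7sf2* (-0.08), *Hsd17b7* (-0.06), *Sc5d* (-0.05) and *Dhcr7* (0.11) were not.

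**Figure D3:**
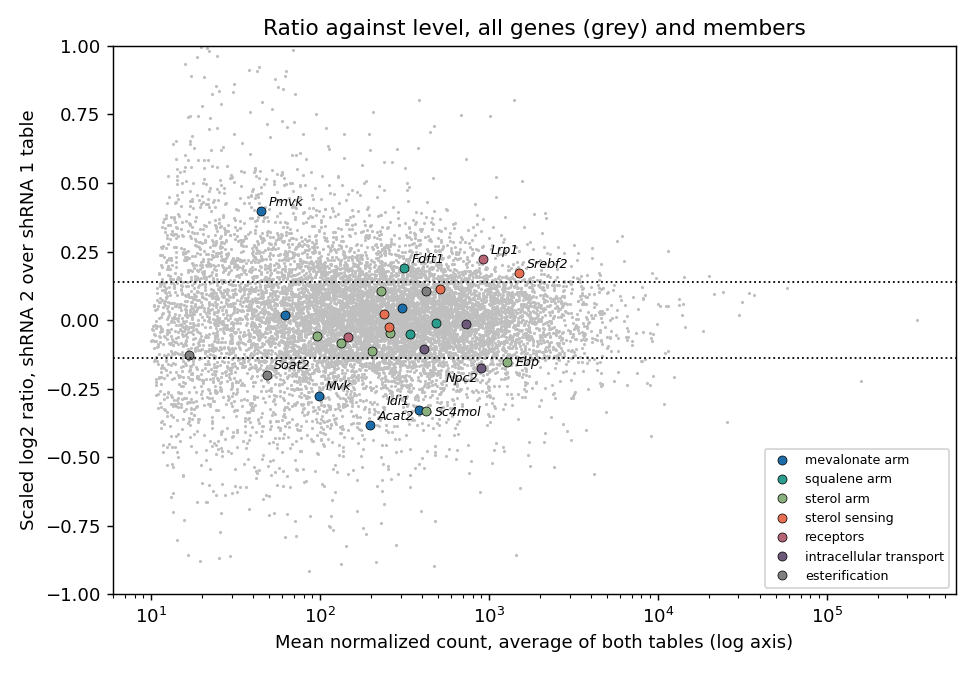
Scaled log2 ratio of the pooled means against the mean normalized count averaged over both tables (log axis), for all genes over the minimum mean of 10 (grey) and the tested members (coloured by role, called members named). Dotted lines mark 1.1-fold, and 35 grey genes lie outside the vertical axis. The members lie within the cloud of all genes at their level.

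Among the regulators, *Srebf2* (ENSMUSG00000022463.6, chromosome 15, 81977696 to 82035806) was the 1 called gene, higher in the shRNA 2 table. Its log2 ratio was 0.17, from 1389 to 1563 after scaling. *Scap* had 0.11, *Insig1* 0.02 and *Insig2* -0.03. Of the 16 listed synthesis enzymes, 11 had scaled ratios below 0, opposite in sign to *Srebf2*, and 5 of these were called lower. The other 5 had scaled ratios above 0, as *Srebf2* did, and 2 of these were called higher. These counts by sign rest on the scaling. *Sqle*, *Lss*, *Hsd17b7* and *Sc5d* lay close to 0 and were above 0 without scaling, as was *Srebf2*. All genes were not counted by sign, and a link between *Srebf2* and the enzymes was not tested.

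Of the genes for uptake and handling, *Lrp1* (ENSMUSG00000040249.9, chromosome 10, 126975217 to 127058204) was higher in the shRNA 2 table, with a log2 ratio of 0.22, from 835 to 974. *Scarb1* had -0.06. *Mylip* had 0.47, the largest log2 ratio of all listed members, but its mean of 9.69 in the shRNA 1 table was under the minimum and it was not counted. *Npc2* (chromosome 12, 86095510 to 86114062) was lower at -0.17, from 936 to 830, while *Npc1* had -0.01 and *Stard4* -0.11. The acyltransferases had ratios of opposite sign, with *Soat2* (chromosome 15, 101980957 to 101993905) called lower at -0.20, from 50.6 to 44.1, and *Soat1* not called at 0.11. *Lcat* had -0.13, just short of the threshold.

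Genes around the pathway were examined from 4 lists of 8 genes each, in which the 0 to 2 calls per direction are to be read against the 18.4% and 17.5% of all genes tested that were higher and lower. Of the 8 genes of SREBP processing, all listed, 2 were lower and none higher. They were *Erlin1* (-0.21) and *Erlin2* (-0.19), which take part in sterol-regulated degradation in the endoplasmic reticulum, and the protease genes *Mbtps1* (0.03) and *Mbtps2* (-0.04) that cut SREBP were not called. Of 8 genes of the oxysterol response and efflux, 6 were listed and 5 reached the minimum mean. Among them *Nr1h2*, which encodes the oxysterol receptor LXR beta, was higher at 0.25, and none was lower. In the isoprenoid branch, which uses the same mevalonate products, 2 of 8 genes were lower and 1 higher, with *Ggps1*, the geranylgeranyl diphosphate synthase, at -0.27 and *Fntb*, a farnesyltransferase subunit, at 0.31. Of 8 further sterol transport genes, 2 were higher and none lower, *Gramd1a* at 0.25 and *Stard5* at 0.20. The median log2 ratios of the 4 lists were -0.02, -0.01, 0.01 and 0.10 in this order.

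Promoter sequence was available for 23 of the 30 members, as RefSeq windows of 300 bases on build GRCm38.p6, from 250 bases before the start of a gene to 50 after it. *Fdps*, *Fdft1*, *Sqle*, *Scarb1*, *Npc1*, *Stard4* and *Soat2* had no entry. Both strands were searched for TCACNCCAC, a form of the sterol regulatory element (SRE) bound by SREBP, for CCAAT, the box bound by NF-Y, for GGGCGG, the GC box bound by Sp1, and for CACGTG, an E-box. NF-Y and Sp1 are known partners of SREBP at such promoters. These motifs do not contain each other. A CCAAT box was present in 20 of the 23 members (87.0%), against 41.1% of all 27025 genes with a window and 43.5% of the 9065 of them listed in both tables. A GC box was present in 21 members (91.3%), against 38.2% of all genes and 68.0% of the listed genes. An E-box was present in 5 members (21.7%), against 8.09% and 11.9%. The SRE letters were found in 1 member, *Hmgcs1*, and in 1.44% of all genes. Only these exact letters were searched, so a promoter without them may still hold another form of the element. Each member with a window held a CCAAT box or a GC box, and 18 held both.

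**Figure D4:**
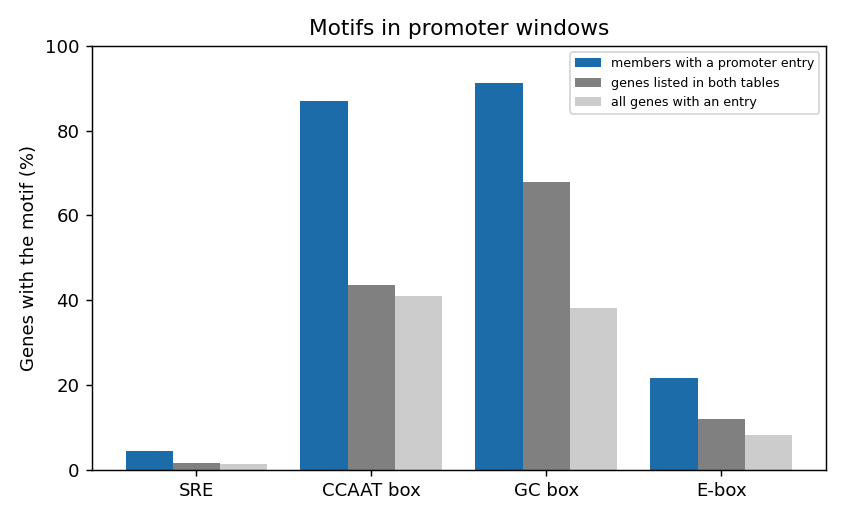
Percent of genes with each motif on either strand of a RefSeq promoter window, for the 23 members with an entry, for 9065 genes listed in both tables and for all 27025 genes with an entry. The CCAAT box is in 87.0% of the members against 43.5% of listed genes, and the SRE letters are in 1 member.

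The windows of the members with the largest called ratios and a single RefSeq start are shown to let the motifs be read beside these ratios. *Acat2*, *Sc4mol* and *Idi1* were lower in the shRNA 2 table, and *Srebf2* and *Lrp1* higher. Each run is the 250 bases before the gene's start, 5′ to 3′ on the strand of the gene, in lower case with CCAAT boxes, GC boxes and E-boxes of either strand in capitals (ATTGG and CCGCCC are the reverse strand forms). *Acat2* lies at chr17:12960726-12960975 on the - strand, *Sc4mol* at chr8:64733579-64733828 on the - strand, *Idi1* at chr13:8885356-8885605 on the + strand, *Srebf2* at chr15:82147019-82147268 on the + strand and *Lrp1* at chr10:127621149-127621398 on the - strand of GRCm38.p6.
*Acat2*: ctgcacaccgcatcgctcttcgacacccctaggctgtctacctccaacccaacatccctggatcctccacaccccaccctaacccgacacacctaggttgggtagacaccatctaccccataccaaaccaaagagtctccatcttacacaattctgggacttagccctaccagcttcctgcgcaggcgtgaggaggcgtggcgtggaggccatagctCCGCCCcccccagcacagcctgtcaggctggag
*Sc4mol*: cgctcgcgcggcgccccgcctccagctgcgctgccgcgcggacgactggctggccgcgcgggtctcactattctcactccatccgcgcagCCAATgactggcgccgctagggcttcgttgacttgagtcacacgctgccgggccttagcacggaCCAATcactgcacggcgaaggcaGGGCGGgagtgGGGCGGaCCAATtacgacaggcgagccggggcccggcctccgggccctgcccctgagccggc
*Idi1*: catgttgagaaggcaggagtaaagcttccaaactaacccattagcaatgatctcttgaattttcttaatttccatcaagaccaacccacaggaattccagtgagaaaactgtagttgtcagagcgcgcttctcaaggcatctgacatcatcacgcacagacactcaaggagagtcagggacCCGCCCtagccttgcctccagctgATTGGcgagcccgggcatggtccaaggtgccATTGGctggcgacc
*Srebf2*: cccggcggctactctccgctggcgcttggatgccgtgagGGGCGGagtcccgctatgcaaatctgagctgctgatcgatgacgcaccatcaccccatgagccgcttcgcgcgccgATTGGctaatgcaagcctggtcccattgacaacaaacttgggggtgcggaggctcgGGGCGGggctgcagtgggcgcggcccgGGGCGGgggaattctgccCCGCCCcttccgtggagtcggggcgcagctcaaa
*Lrp1*: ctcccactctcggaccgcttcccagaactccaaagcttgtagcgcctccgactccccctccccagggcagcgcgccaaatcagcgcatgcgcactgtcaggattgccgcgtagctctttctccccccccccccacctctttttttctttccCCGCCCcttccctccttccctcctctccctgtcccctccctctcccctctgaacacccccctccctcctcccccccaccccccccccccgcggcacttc

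In these stretches *Sc4mol* had 3 CCAAT boxes and 2 GC boxes, *Idi1* 2 and 1, *Srebf2* 1 and 4, and *Acat2* and *Lrp1* 0 and 1. Genes lower in the shRNA 2 table and genes higher in it therefore both included promoters with and without a CCAAT box.

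The only member with the SRE letters was *Hmgcs1*. It has no expression value here and is shown for the motif alone. The stretch of 40 bases lies at chr13:119690198-119690237 on the + strand of GRCm38.p6, with the SRE in capitals starting 137 bases before the gene's start.
*Hmgcs1*: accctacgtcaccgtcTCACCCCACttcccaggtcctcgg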

How the data were processed

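Libraries of AML12 cells (3 control, 3 with each of 2 *Srrm2* hairpins) were grouped by the sample titles. Per the methods, libraries were enriched for polyA RNA and strand-specific. The authors trimmed the reads, aligned them to mm9 (TopHat2), retained unique concordant pairs and counted GENCODE M1 genes (HTSeq). They then ran DESeq2 version 1.8.2. The strand setting of the counting is not given in the sources used here. The deposited signal used is the mean normalized count (counts divided by size factors, averaged over the 6 libraries of a comparison). The 5 other deposited columns are the authors' own comparison (fold change, its standard error, test statistic, p-value and adjusted p-value) and were not used. A gene that is not listed is not called unexpressed.

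All identifiers matched GENCODE M1 on NCBIM37, the assembly of mm9, which gave symbols, positions and lengths. Levels and scaled ratios were computed in Python 3.11.15 with numpy 2.4.6, pandas 2.3.3 and matplotlib 3.10.9. The scaling was also run on simulated counts with a known constant shift and sampling noise only. That run checks the computation and cannot show how well the scaling suits these libraries. The means used carry no depth per library and no replicate error, and the authors' standard errors and p-values were left unused, so no test or interval is given. All 30 members are named, with counts, medians and examples of the lists around them. Members and lists were chosen with earlier results of these data known. A planned comparison of protein pairs was not run, as no protein sequences were used here. Alternatives were other scalings, folds, minimum means, lengths, single tables and promoter backgrounds.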

Additional observations from a re-analysis of the deposited data

How the results depend on the processing

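The scaling and the fold decided how many members were called. Without scaling, 7 members were higher and 4 lower in the shRNA 2 table in place of 4 and 7, so the raw direction rests on the scaling. The shares of all genes moved as well, to 32.5% higher and 10.2% lower in place of 18.4% and 17.5%. Set against all genes, a smaller share of members was higher and a larger share lower under both settings. These settings differ only by a constant shift of every log2 ratio, so they are not separate evidence. No test of the difference in shares is given, and it rests on few genes. A fold of 1.2 left 1 higher and 4 lower, against 6.44% and 6.63% of all genes. A fold of 1.3 left 1 and 1, against 2.69% and 2.86% of all genes, so no lean to lower calls remained there. The combined shares of members were 17.9% and 7.14% at these folds, against 13.1% and 5.55% of all genes. The other scalings gave the same counts, and the minimum means of 100 and 0 gave counts within 1.5 times. No called member changed sign under another scaling, but the shift of 0.07 removed by the scaling is smaller than the 0.14 needed for a call. Of the members not called, *Sqle*, *Lss*, *Hsd17b7*, *Sc5d*, *Insig2*, *Scarb1* and *Npc1* went from below 0 to above 0 without scaling. Dividing by the exon union of a gene in place of its longest transcript moved the level of 7 of the 29 members by over 1.5 times, such as *Lss* from 72.8 to 31.5 and *Sqle* from 176 to 87.5 counts per kb. The number of members above the median gene was 20 by transcript length, 19 by exon union and 20 without division by length. With genes listed in both tables as background, the share with a GC box was 68.0% in place of 38.2%. No paired analysis was possible because the tables hold 1 pooled mean per comparison and no value per library, and for the same reason no replicate could be left out. The pooled means limit what can be seen: a change shared by both hairpins leaves the ratio near 1.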
